A study of Mus musculus with 15 samples.

Results

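The kidney that remains after uninephrectomy, the removal of 1 kidney, was compared with the kidney of sham-operated mice on a low-fat diet. The comparison uses 8 of the 15 arrays of the series, chosen by their labels: 4 from sham mice and 4 from mice with 1 kidney, each array from a different mouse. All were male C57/BJ mice on the low-fat (control chow) diet, operated on at 6 weeks of age and killed 20 weeks later. In the uninephrectomy group the left kidney was taken out after the adrenal gland had been freed from its upper pole; in the sham group the kidney was handled and left in place. The labels give 6 mice per group, of which 4 per group are on these arrays, and which kidney of the sham mice was used is not given in the sources used here. The other 7 arrays come from mice on a high-fat diet, 3 sham-operated and 4 with 1 kidney, of the same strain, sex, age and time after surgery; they enter the estimate of the spread and one side-by-side comparison.

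After the loss of 1 kidney the other grows, mainly by enlargement of its nephrons rather than by cell division, and each remaining nephron filters and reabsorbs more. Growth factor and mTOR signalling, ribosome production and proximal tubule enlargement are known from the first days and weeks. Over longer times a single kidney can develop glomerular scarring and matrix deposition. The late time point here asks what differs in the transcriptome of the remaining kidney long after the operation.

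RNA was measured on 1-colour Agilent arrays. Levels are given as log2 of the processed signal minus the array's 75th percentile, so a level of 0 is that percentile. Between 60.5% and 65.6% of spots on a low-fat array were well above background, with 94 to 140 outlier spots and none saturated. All low-fat sham arrays lie on 1 slide and all low-fat uninephrectomy arrays on another. Surgery and slide therefore cannot be told apart in any value below that rests on the low-fat comparison. Kidney identity was as labelled: Slc34a1 (the proximal phosphate transporter) stood at 7.22 ± 0.11 (SD, n = 4) in sham and 7.42 ± 0.09 (SD, n = 4) in 1-kidney mice, and Umod (uromodulin of the thick ascending limb) at 6.83 ± 0.18 and 7.04 ± 0.30. The first principal component of the 8 arrays (23.4% of the variance) did not part the groups: sham 1 (-29.0), 1-kidney 4 (-20.6) and 1-kidney 3 (-14.7) lay on one side and the other 5 arrays at 1.05 or above. Those 3 arrays are also the ones highest in liver-type transcripts, described with the other tissues further on.

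Of 16055 genes tested with limma and Benjamini-Hochberg adjustment, 1 was higher at an adjusted p under 0.05 in 1-kidney mice (0.00623% of those tested) and 0 were lower (0%). At an unadjusted limma p under 0.05 there were 275 higher (1.71%) and 244 lower (1.52%). The 4 arrays of the groups did not overlap for 417 genes higher (2.60%) and 317 lower (1.97%). Of all genes, 8384 (52.2%) were higher and 7671 lower, and their median difference was 0.0087 (log2), with quartiles of -0.095 and 0.11.

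The gene that rose was Zim3, an imprinted locus next to Peg3 on mouse chromosome 7, listed as a long noncoding RNA in the RefSeq table. Its level in sham mice was -4.95, -5.14, -5.43 and -5.27, and in 1-kidney mice -4.22, -4.25, -4.22 and -3.95. Every 1-kidney array lay above every sham array. The log2 difference was 1.03 ± 0.127 (SE), or 2.05-fold (95% interval 0.76 to 1.31 in log2), with a limma adjusted p of 0.0175. Zim3 is dim: its 1 probe was well above background on 3 of 4 sham and all 4 1-kidney arrays. The call was lost in the fit of the 8 low-fat arrays alone (adjusted p = 0.173), with the slide entered as a random block (1.00), with the normexp background (0.32, adjusted p = 1.00), and in 7 of 8 fits that left out 1 array, all but the one without sham 1, where the adjusted p ran from 0.0715 to 0.127. In the RefSeq table Zim3 overlaps Usp29, which had no tested probe. The other measured genes of the region did not pass. Peg3 (a zinc finger gene expressed from the paternal copy) was at -0.32, and its antisense transcript Peg3os was not well above background on any of the 8 arrays.

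**Figure D1:**
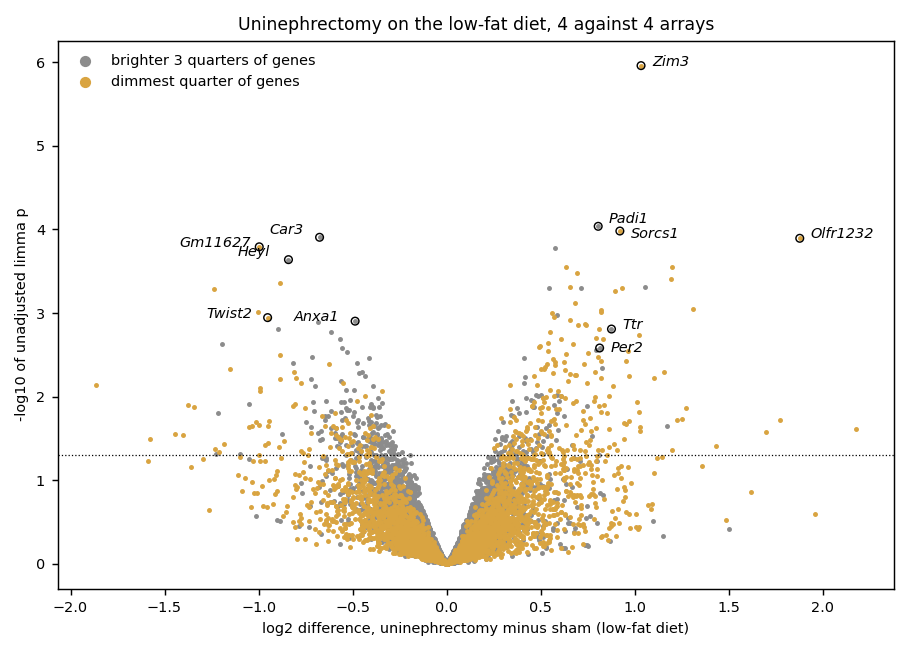
Each point is 1 of 16055 genes: the x axis gives the log2 difference of 1-kidney minus sham mice on the low-fat diet, the y axis -log10 of the unadjusted limma p, and the dotted line the unadjusted threshold. Zim3 stands alone at the top, and many of the next points (ochre) are among the dimmest 4014 genes.

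The other genes of lowest p that were higher in 1-kidney mice did not pass the adjustment (adjusted p = 0.384 to 0.433 by limma and Benjamini-Hochberg). Padi1 (an enzyme that converts protein arginine to citrulline, best known in epithelia) had sham levels of -2.84, -2.97, -2.91 and -2.90 and 1-kidney levels of -2.10, -2.29, -1.93 and -2.07. Its groups were far apart relative to their spread, with a difference of 0.81 ± 0.149 (SE). Sorcs1 (a sorting receptor) stood at -4.84, -5.31, -4.88 and -5.02 in sham and -4.12, -4.29, -4.003 and -3.96 in 1-kidney mice, a difference of 0.92, well above background on 3 of 4 sham arrays. These groups did not overlap either. Scgb2b20 (a secretoglobin), Lce1m (a late cornified envelope gene of skin), Mcoln3 (an endolysosomal cation channel) and the uncharacterised 1700016H13Rik differed by 0.58 to 0.70, each with 8 arrays well above background and no overlap. The remaining 3 sat at the limit of detection. Olfr1232, an olfactory receptor gene, was well above background on 0 of 4 sham and 2 of 4 1-kidney arrays (at least 1.198-fold higher, where this bound takes the dimmest signal the array could call as the sham level). Olfr353 was so on 0 and 3 arrays (at least 1.55-fold higher). Myoz1 (calsarcin of skeletal muscle) was below that level on all 8 arrays, so no fold is given.

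Among the 10 lowest p-values in the lower direction, none passed (adjusted p = 0.384 to 0.664). Car3 (carbonic anhydrase 3, abundant in adipocytes and muscle) was at 3.41, 3.36, 3.33 and 3.72 in sham and 2.95, 2.67, 2.76 and 2.73 in 1-kidney mice. Its groups did not overlap, and the difference was -0.68 ± 0.126 (SE). Heyl (a Notch target of vascular mural cells) was at -1.52, -1.59, -1.19 and -1.89 against -2.79, -2.46, -2.08 and -2.22, a difference of -0.84 ± 0.172 (SE) with no overlap. Anxa1 (annexin A1, a regulator of inflammation) was at 1.15, 0.96, 0.84 and 0.89 against 0.29, 0.56, 0.62 and 0.43. The difference was -0.49, and a further probe gave -0.43. Ada (adenosine deaminase) differed by -0.68, Twist2 (a mesenchymal transcription factor) by -0.95, the noncoding Gm11627 by -0.996 and Gm13889 by -0.90, none with overlap. For Olfr225 (at least 1.202-fold lower) and Lbhd2 (at least 1.02-fold lower, groups overlapping) no 1-kidney array was well above background, and Lmx1a was not so on any of the 8 arrays.

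**Figure D2:**
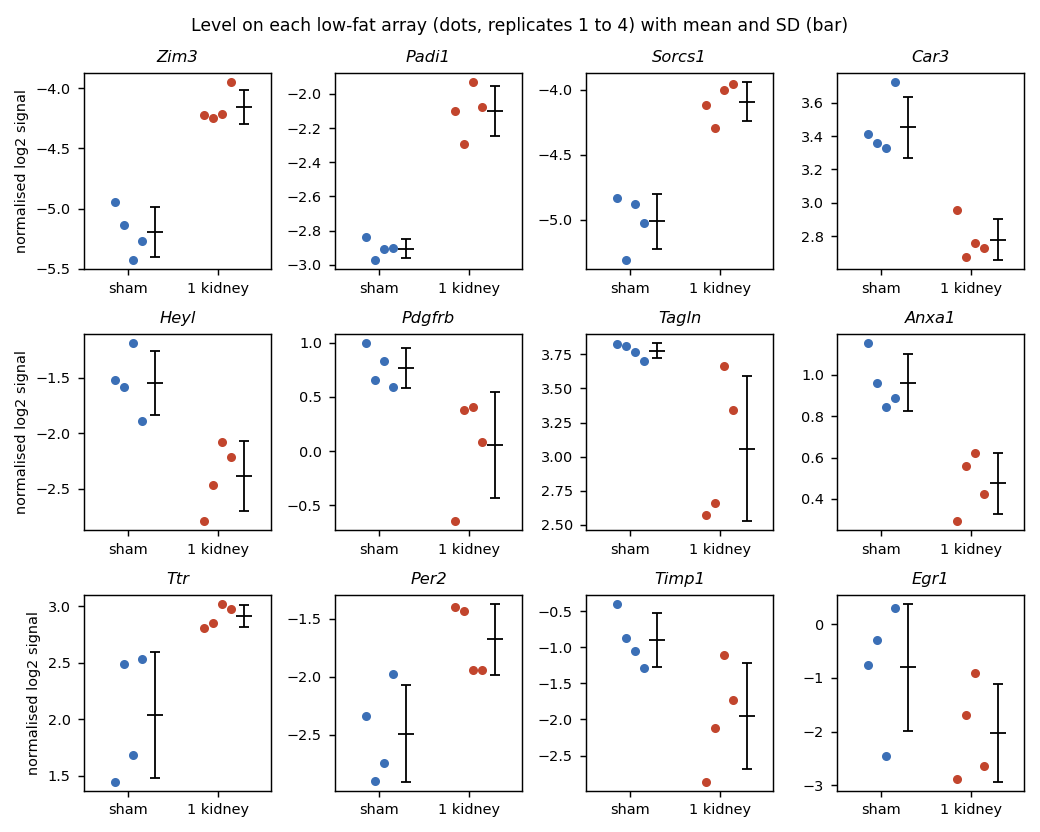
Normalised log2 signal of 12 genes on each of the 8 low-fat arrays (dots, 4 sham and 4 with 1 kidney), with mean and SD as bars. Zim3, Padi1, Sorcs1, Car3, Heyl, Pdgfrb, Tagln, Anxa1, Ttr and Per2 do not overlap between groups, while Timp1 and Egr1 do.

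Low p-values went with low signal. Among the dimmest 4014 genes (mean levels from -7.97 to -3.32) 4.78% had an unadjusted p under 0.05 in the higher direction and 2.19% in the lower, against 0.324% and 0.673% among the brightest 4014. Of the 10 lowest-p genes, 8 of the higher and 5 of the lower ones belonged to the dimmest 4014. Non-overlap was less dependent on signal, with 3.54% higher and 1.27% lower among the dimmest 4014 and 2.37% and 2.34% among the brightest. Whether low signal plays a part in the differences was not tested.

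Genes were then read in 39 lists, none of which had a member passing the adjustment apart from the one that holds Zim3. Their counts and medians are set beside the median of 0.0087 and the shares given above for all genes. Lists and members were chosen with earlier results of these data known, so these shares are a description and not a test. Leaving out 1 low-fat array at a time moved 36 of the 39 medians by more than 1.5 times in at least 1 case, and 13 changed sign; the exceptions were the respiratory chain, gluconeogenesis and tubular injury lists. In bulk tissue, fewer cells of a type and less RNA per cell cannot be told apart. The lists for glomerular, vascular and interstitial cells lay below 0. Of 18 podocyte genes 16 were lower (median -0.14), and the median was -0.058 without sham 1 and -0.025 without the 3 arrays rich in liver-type transcripts. Of 20 endothelial genes 19 were lower (median -0.20), and 4 did not overlap (against 1.97% of all genes in this direction): Flt1 (a VEGF receptor), Emcn, Plvap and Icam2, with differences of -0.30, -0.19, -0.27 and -0.20.

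Of 16 mesangial, pericyte and smooth muscle genes 14 were lower (median -0.26). Pdgfrb (the PDGF receptor of mesangial cells and pericytes) was at 1.00, 0.66, 0.83 and 0.59 in sham and -0.65, 0.38, 0.40 and 0.08 in 1-kidney mice. Tagln (transgelin of smooth muscle) was at 3.83, 3.81, 3.77 and 3.70 against 2.57, 2.66, 3.66 and 3.34. For both genes 1-kidney 1 was the lowest array, and for Tagln the highest 1-kidney array came close to the lowest sham array. The extracellular matrix list had 29 of 33 genes lower (median -0.31), with 4 at an unadjusted limma p under 0.05 (against 1.52% of all genes): Timp1 (a metalloproteinase inhibitor; -1.05), Col1a1 (-0.63), Col3a1 (-0.57) and Dcn (decorin; -0.56). For each of these 4 genes the groups overlapped. The 4 matrix genes without overlap were Lamb1, Sparc, Timp3 and Mmp14, at -0.21, -0.29, -0.16 and -0.55. The list mean, relative to the 8-array mean, was -0.67 on 1-kidney 1 and between -0.088 and 0.061 on the other 1-kidney arrays. Without 1-kidney 1 the list median was -0.20, and for the mural list -0.16. Of 24 TGF-beta and BMP genes 16 were lower (median -0.12), and Tgfb1 itself differed by -0.062.

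Tubular transport lists lay above 0. Of 25 proximal tubule transport genes 20 were higher (median 0.15). Amn (amnionless, the partner of cubilin in protein uptake) differed by 0.29, and Slc13a3 (a dicarboxylate transporter) by 0.27 with levels of 5.77, 5.76, 5.96 and 6.07 against 6.08, 6.24, 6.14 and 6.19. The groups of Slc13a3 touched without overlap, through sham 4 and 1-kidney 1. Of 21 loop and distal salt transport genes 17 were higher (median 0.21), with Slc12a3 (the thiazide-sensitive cotransporter) at 0.34 and Calb1 (calbindin) at 0.62, both overlapping. Collecting duct principal cell genes had 13 of 18 higher (median 0.10) and intercalated cell genes 11 of 18 (median 0.038). Aqp2 differed by 0.15. Without 1-kidney 1 the loop median was 0.12 and the principal cell median 0.018; without 1-kidney 3 they were 0.34 and 0.18. Of the 16 male-biased kidney genes 13 were higher (median 0.23). The medians were 0.016 for the proximal and 0.052 for the male-biased genes without the 3 arrays rich in liver-type transcripts.

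Energy metabolism genes had small differences in one direction. Of 28 respiratory chain and ATP synthase genes 27 were higher (median 0.12), and of 30 fatty acid oxidation genes 26 (median 0.12). Cpt1a (carnitine palmitoyltransferase, the entry step of mitochondrial oxidation) was at 3.87, 4.09, 4.08 and 4.01 in sham and 4.32, 4.38, 4.20 and 4.16 in 1-kidney mice, a difference of 0.25 ± 0.140 (SE) without overlap. Acads (short-chain acyl-CoA dehydrogenase), Uqcrc1 (complex III) and Atp5a1 (ATP synthase, measured on 3 of 4 sham arrays) did not overlap either, at 0.39, 0.27 and 0.16. None of these 58 genes had an unadjusted p under 0.05. Without the 3 arrays rich in liver-type transcripts the medians were 0.033 for the respiratory chain and 0.041 for oxidation. Gluconeogenesis genes had 13 of 17 higher (median 0.075).

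Genes of growth, the classical theme of the remaining kidney, gave no call at 20 weeks. Igf1 was at -1.76 ± 0.17 (SD, n = 4) in sham and -1.79 ± 0.15 (SD, n = 4) in 1-kidney mice, with a 95% interval of the difference from -0.33 to 0.28. Rps6 (a ribosomal protein and mTOR pathway target) differed by -0.0079 (interval -0.24 to 0.22; further probes -0.13 and 0.059) and Ccnd1 (cyclin D1) by 0.14 (interval -0.32 to 0.59). Of 26 growth factor and receptor genes 9 were higher (median -0.070), of 26 mTOR and PI3K genes 15 (0.025), of 25 cell cycle and replication genes 13 (0.038), of 17 cell cycle inhibitor and G1 cyclin genes 5 (-0.045), of 35 ribosomal protein genes 13 (-0.021) and of 22 ribosome biogenesis genes 10 (-0.010). Non-overlapping members were Kl (klotho, 0.24), Igfbp2 (0.95, with a wide interval of -0.71 to 2.62), Akt2 (0.12) and, of the G1 list, Cdk4 (-0.15). The interval of Igfbp2 rests on the spread over all 15 arrays. Within the low-fat groups its SD was 0.27 in sham and 0.38 in 1-kidney mice. On the high-fat diet these non-overlapping members had the opposite sign, at -0.028, -0.72, -0.043 and 0.12. Further probes lay on both sides of 0 for Akt2 (-0.037 and 0.037) and Cdk4 (-0.044 and 0.025). Cdkn1a (the cell cycle inhibitor p21) differed by -0.34 with overlap on its brightest probe and by 0.34 on the other. In the renin-angiotensin list, 8 of 12 genes were higher (median 0.036), and Ren1 (renin) was at -0.042, -0.85, -0.051 and -0.68 against -0.22, -0.81, -1.03 and -1.88, overlapping.

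Injury and immune lists lay at or below 0. Of 18 tubular injury genes 14 were lower (median -0.22). Anxa2 and Cp (ceruloplasmin) did not overlap, at -0.32 and -0.48, while Havcr1 (Kim-1; -0.67) and Lcn2 (-0.56) overlapped widely. Of 21 inflammatory mediator genes 14 were lower (median -0.14, and -0.0050 without 1-kidney 1), with Cx3cl1 (fractalkine; -0.27) and Tnfaip3 (an NF-kappaB feedback inhibitor; -0.47) not overlapping. Macrophage and antigen-presenting cell genes had 17 of 18 lower with a median of -0.086, which was 0.049 without 1-kidney 1. Lymphocyte genes had 12 of 16 lower (median -0.19, and -0.067 without 1-kidney 1), and interferon-stimulated genes 12 of 21 (median -0.011).

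**Figure D3:**
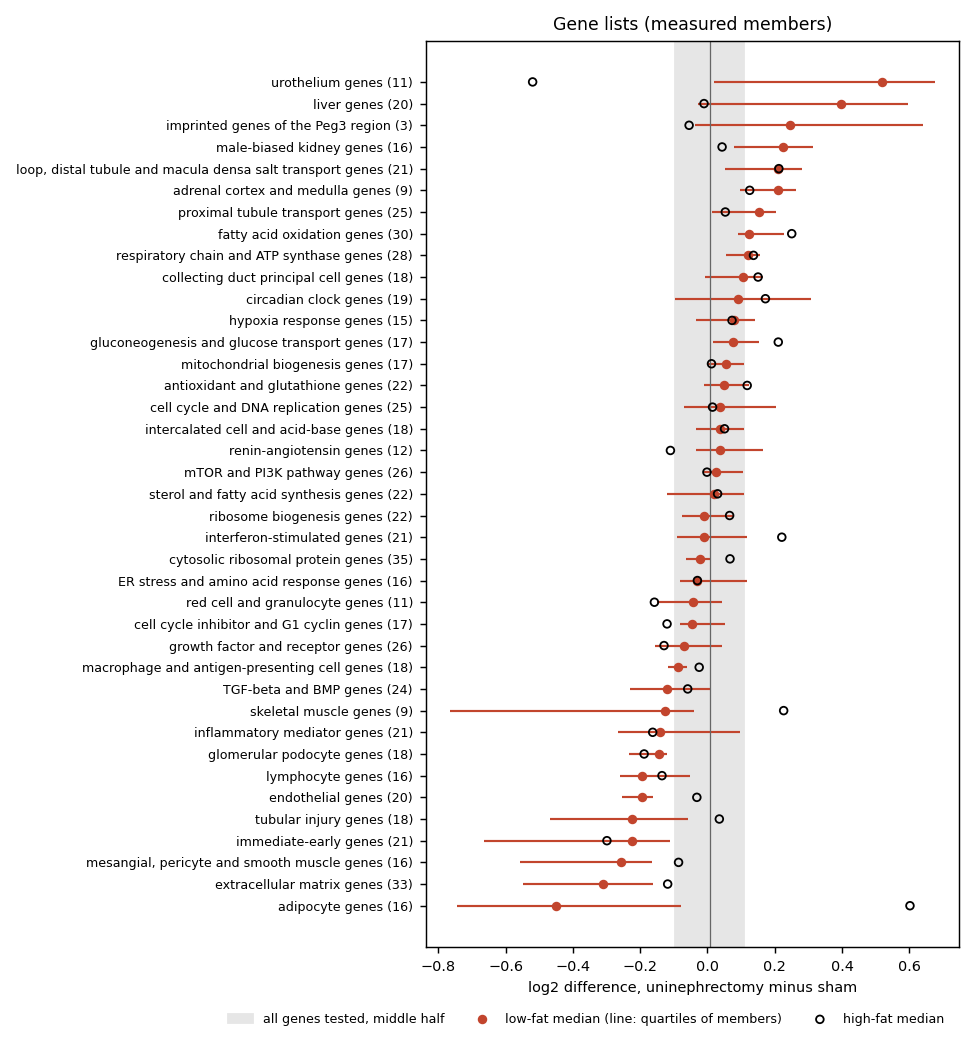
For each of 39 gene lists (measured members in brackets) the filled dot is the median log2 difference of 1-kidney minus sham mice on the low-fat diet, the line the quartiles of its members, and the open circle the median on the high-fat diet. The grey band holds the middle of all tested genes, from -0.095 to 0.11; matrix, mural and endothelial lists lie left of it and loop and proximal transport lists right of it.

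Immediate-early genes, which serum response factor and other stimulus-activated factors switch on within minutes, were lower in 18 of 21 cases (median -0.22). Egr1 was at -0.77, -0.29, -2.46 and 0.30 in sham and -2.88, -1.68, -0.90 and -2.65 in 1-kidney mice, a difference of -1.23 ± 0.569 (SE). The groups overlapped, sham 2 and sham 4 being the highest arrays. Fos (-5.31, -3.19, -6.31 and -2.76 against -6.69, -6.05, -4.73 and -6.41; well above background on 3 sham and 2 1-kidney arrays) had the same 2 arrays highest, and Nr4a2 (an orphan nuclear receptor), at -0.66, was the 1 member whose groups did not overlap. Egr2 was at -4.90, -4.47, -4.99 and -3.996 against -7.36, -5.32, -4.34 and -5.72, well above background on 4 sham and 2 1-kidney arrays. Its promoter is shown because it carries the CArG box that serum response factor binds (in capitals), at positions -72 to -63 from the start site, on the plus strand of chr10:67537316-67537565 (GRCm38.p6, from RefSeq; 1 of 5 starts in the table). Of 32851 promoters of 250 bases, 1.47% hold such a box on either strand. The start shown was picked from the 5 for its match, so this share does not tell how unusual the match is.
Egr2: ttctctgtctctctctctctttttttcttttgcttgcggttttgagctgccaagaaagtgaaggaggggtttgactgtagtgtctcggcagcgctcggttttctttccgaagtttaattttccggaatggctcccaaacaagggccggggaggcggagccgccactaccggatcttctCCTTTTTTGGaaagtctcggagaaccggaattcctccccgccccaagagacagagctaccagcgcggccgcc

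Circadian clock genes had 12 of 19 higher (median 0.090). Per2 (a repressor arm of the clock) was at -2.34, -2.90, -2.75 and -1.98 in sham and -1.39, -1.43, -1.95 and -1.94 in 1-kidney mice, a difference of 0.81 ± 0.223 (SE) that did not pass the adjustment (limma adjusted p = 0.810). Its groups did not overlap, though sham 4 lay next to 1-kidney 3 and 4. Per1 was at 1.61, 1.04, 0.89 and 1.47 against 1.56, 2.46, 1.73 and 1.42, and these groups overlapped, with a difference of 0.54. The list mean ran from -0.34 on sham 3 to 0.21 on sham 1, and the median was -0.035 without sham 3. The hour at which kidneys were taken is not given in the sources used here, and its part was not tested. The Per1 promoter is shown for its clock elements, in capitals: an E-box (CACGTG, bound by CLOCK and BMAL1) at positions -166 to -161 from the start site and a D-box (TTATGCAA) at -24 to -17, on the plus strand of chr11:69098699-69098948 (GRCm38.p6, from RefSeq; 1 of 2 starts). On either strand, 6.02% of the 32851 promoters hold this E-box and 0.694% this D-box, and the searched motifs do not overlap each other here. The start shown was picked from the 2 for its matches, so these shares do not tell how unusual they are.
Per1: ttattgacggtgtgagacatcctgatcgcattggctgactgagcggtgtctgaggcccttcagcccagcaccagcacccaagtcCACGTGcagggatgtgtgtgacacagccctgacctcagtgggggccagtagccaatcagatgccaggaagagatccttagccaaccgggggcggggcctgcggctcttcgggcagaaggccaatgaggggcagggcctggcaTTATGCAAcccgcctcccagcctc

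Markers of tissues that adjoin or supply the kidney varied widely among the arrays of each group. The mean of 20 liver genes, relative to the 8-array mean, was 0.95, -0.15, -0.38 and -1.10 in sham and -0.78, -1.46, 1.28 and 1.64 in 1-kidney mice. Sham 1 and 1-kidney 3 and 4 were high and the other arrays low, in both groups. Alb (albumin) followed this order at the top, at 1.34 on sham 1 and 2.00 and 2.22 on 1-kidney 3 and 4 against 0 or less elsewhere (-0.67 to -0.067). Of the liver list 15 of 20 genes were higher (median 0.40), and without those 3 arrays the median was -0.54. Ttr (transthyretin) was the only member whose groups did not overlap, at 1.44, 2.48, 1.69 and 2.54 against 2.81, 2.85, 3.02 and 2.97, a difference of 0.88 ± 0.224 (SE; limma adjusted p = 0.664). Ttr was lower on 1-kidney 1 and 2 than on 3 and 4, and on all 4 it lay above every sham array.

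Of 16 adipocyte genes 14 were lower (median -0.45), and the list mean was -1.51 on 1-kidney 3 against 0.20 to 0.43 on the other 1-kidney arrays and -0.49 to 0.83 in sham. Adipoq (adiponectin) was at -3.35 on 1-kidney 3 and between -1.09 and 1.17 on the other 7 arrays. Without 1-kidney 3 the median was -0.099. Car3 belongs to this list, and its level on 1-kidney 3 (2.76) was close to those on 1-kidney 2 and 4 (2.67 and 2.73). Urothelium genes had a median of 0.52, with list means of 0.93 on sham 2 and 1.67 on 1-kidney 4 against -1.13 on sham 4, and the median was 0.018 without sham 4. Upk3a (a urothelial plaque protein) ranged from -5.44 to -1.71 in sham and from -5.25 to -0.21 in 1-kidney mice. Of 9 skeletal muscle genes tested, which do not take in Ckm, Mb or the fast myosin heavy chains, 7 were lower (median -0.13), with the list mean between 0.023 and 0.28 in sham and between -0.27 and -0.0034 in 1-kidney mice. Red cell and granulocyte genes had a median of -0.042.

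The adrenal gland freed at surgery was that of the left kidney, which was taken out, and the 1-kidney arrays hold the remaining kidney. Which kidney the sham arrays hold is not given in the sources used here. Adrenal genes are given here as markers of an adjoining tissue. Of 9 measured genes 7 were higher (median 0.21), while the steroid synthesis genes Cyp11a1, Cyp11b1 and Cyp11b2 were not among the genes tested. The list mean ran from -0.18 to 0.29 in sham and from -0.056 to 0.097 in 1-kidney mice. Cyp21a1 (steroid 21-hydroxylase of the cortex) was at -3.91, -4.03, -3.89 and -3.84 in sham and -3.32, -3.57, -3.22 and -3.13 in 1-kidney mice, a difference of 0.61 ± 0.162 (SE; limma adjusted p = 0.737) with no overlap. Akr1b7 (a reductase also abundant in adrenal cortex) lay in the other direction, at -1.11, -1.43, -1.13 and -1.48 against -1.68, -1.72, -1.87 and -2.23. Its difference was -0.59 with no overlap. Mc2r (the ACTH receptor), well above background on 3 sham and 2 1-kidney arrays, was lower in 1-kidney mice with overlap. At an unadjusted limma p under 0.05, 1 gene of this list was higher and 2 were lower (against 1.71% and 1.52% of all genes). The part of these tissues in the differences above was not tested.

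**Figure D4:**
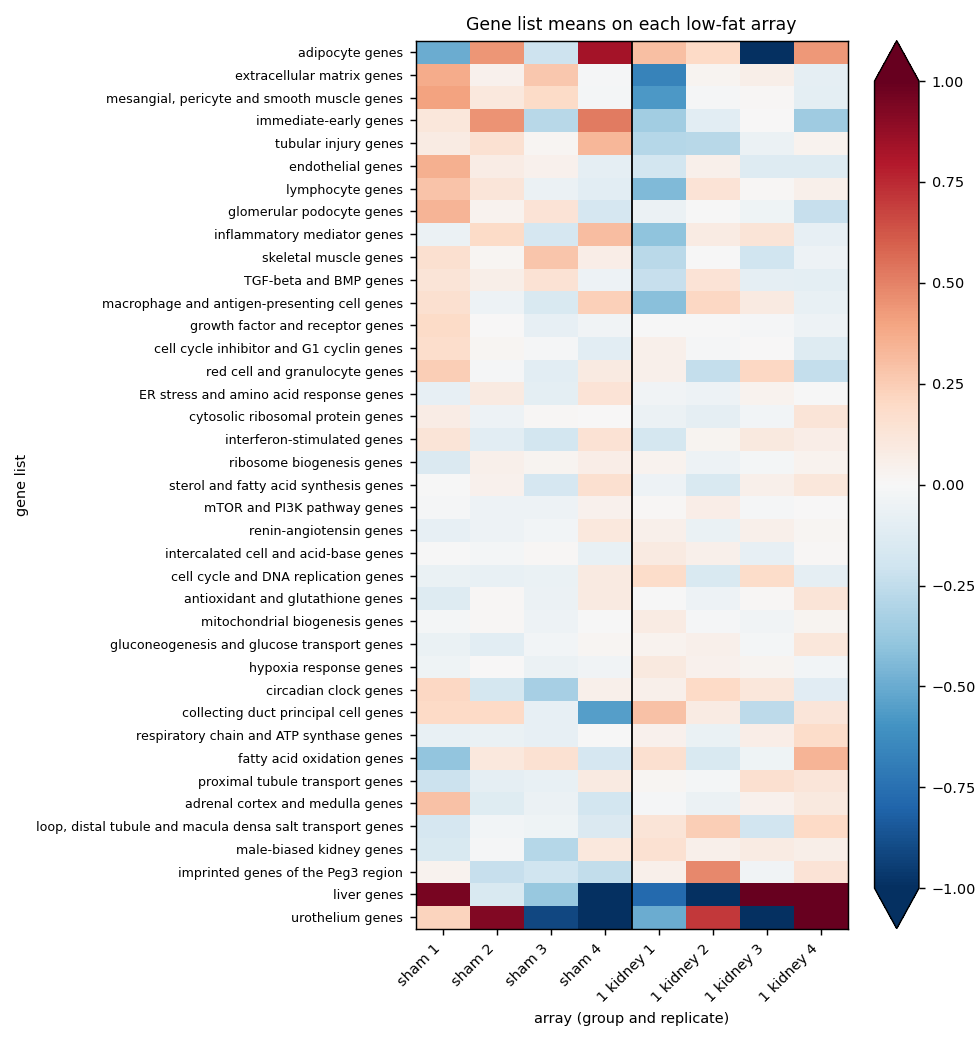
Mean level of each gene list (y axis) on each low-fat array (x axis), in log2 relative to the 8-array mean, with colours cut at -1 and 1. Liver, urothelium and adipocyte lists change from array to array within both groups, and matrix and mural lists are lowest on 1-kidney 1.

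The high-fat groups give the same operation in other mice, and there both groups share slides. On the high-fat diet 0 of 16055 genes passed (0%; 747 at an unadjusted p under 0.05), and 0 passed the limma test of the difference between the diets (0%; 219 at an unadjusted p under 0.05). Of the 10 lowest-p genes higher on the low-fat diet, 10 were also higher on the high-fat diet, with a median difference of 0.86 on the first and 0.29 on the second. Of the 10 lower ones 9 were also lower, with medians of -0.89 and -0.38; Olfr225 was the exception, at 0.57. Among the 519 genes with a low-fat p under 0.05, 433 (83.4%) had the same sign on both diets, against 60.9% of all genes. The correlation of the 2 differences over the 16055 genes was 0.251 (Pearson) and 0.305 (Spearman), across genes that are not independent and from groups that share no array.

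Zim3 differed by 0.51 ± 0.137 (SE) on the high-fat diet and Car3 by -0.77 ± 0.145 (SE). The diet difference had an unadjusted limma p of 0.0147 for Zim3, which did not pass the adjustment (1.00). Per2 differed by 0.83 and Egr1 by -1.92 on the high-fat diet. Sorcs1, Padi1 and Mcoln3 were at 0.15, 0.19 and 0.11 there, and Tagln and Twist2 at -0.0041 and -0.034. Fatty acid oxidation genes had 27 of 30 higher (median 0.25) and respiratory chain genes 26 of 28 (0.14). The endothelial (-0.032), mural (-0.086), matrix (-0.12), proximal transport (0.053) and male-biased (0.043) medians lay nearer to 0 than on the low-fat diet. The podocyte (-0.19), inflammatory mediator (-0.16) and immediate-early (-0.30) medians lay farther from 0. Several medians had the opposite sign, among them adipocyte (0.60), urothelium (-0.52), tubular injury (0.035, 10 of 18 higher), skeletal muscle (0.23) and liver (-0.010). So did the interferon-stimulated (0.22), renin-angiotensin (-0.11), ribosomal protein (0.067), ribosome biogenesis (0.066), Peg3 region (-0.055) and mTOR and PI3K (-0.0016) medians. The difference of these list medians between diets was not tested.

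**Figure D5:**
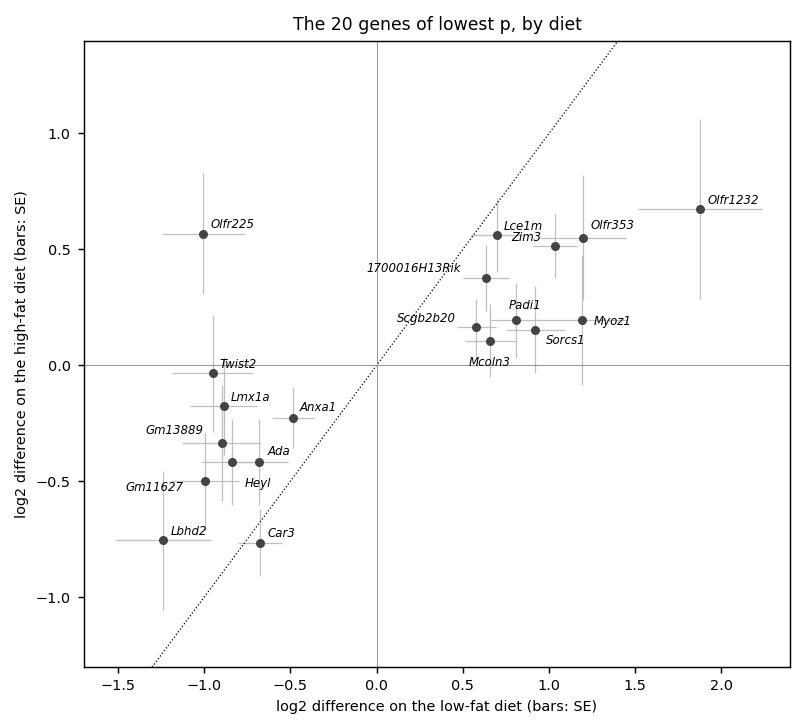
For the 20 genes of lowest p in the low-fat comparison (10 in each direction), the x axis gives the log2 difference of 1-kidney minus sham mice on the low-fat diet and the y axis that on the high-fat diet, with SE bars. Car3 lies beyond the dotted line of equal differences, most others nearer to 0 on the high-fat diet, and Olfr225 has the opposite sign.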

How the data were processed

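Kidney RNA was measured on 1-colour Agilent arrays. The deposited intensity values are the authors' processed signals, background-subtracted and detrended within each array by Feature Extraction 10.7.3.1 per the file headers (10.7 per the submitters' processing notes). The deposited value table holds the same signals (0.995 to 1.005 times).

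Here log2 signal was taken for non-control spots, outlier spots dropped, spots of a probe averaged and each array's 75th percentile subtracted. Of these probes, 28244 were well above background on 3 or more arrays and were kept, and the brightest per RefSeq symbol (GRCm38.p6 table, names only; 27234 of 39429 probes matched) gave 16055 genes, 43 with a missing value. A gene dark in a whole group has a bound from the lowest signal called on each array (-5.94 to -5.22). limma 3.58.1 (lmFit, eBayes, statmod 1.5.0, R 4.3.3) was fitted to all 15 arrays with 1 mean per group, two-sided, with Benjamini-Hochberg adjustment. The number of arrays limits precision. Named genes were those that passed, the 10 lowest p in each direction, up to 4 lowest-p and all non-overlapping members of each list, and 39 panel genes (38 measured). Members and lists were chosen with earlier results of these data known. Alternatives changed normalization, background, filter, probe choice, blocks, weights and arrays. Normexp (offset 50) used the median spot and background signals, since the planned mean signal was not used here. Replicate numbers came with the mouse labels and were not taken as pairs in the main fit. Results for 4 genes are not reported here.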

Additional observations from a re-analysis of the deposited data

Results flagged for a closer look

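Of 192 group-by-gene or group-by-list sets of 4 low-fat arrays examined, 13 had 1 array far from the other 3, and about 1 in 20 would by chance. Among list means (log2 relative to the 8-array mean), adipocyte genes were at -1.514 on 1-kidney 3, against 0.202 to 0.433 on the others. Growth factor genes were at -0.054 on 1-kidney 4, cell cycle genes at 0.09 and respiratory chain genes at -0.006 on sham 4, and the 3 genes of the Peg3 region at 0.037 on sham 1. Among single genes, the far array was 1-kidney 4 for Zim3 (-3.951, the others from -4.252 to -4.216), which is the highest array of the higher group. Sham 1 stood apart for Gm11627 (-4.299), Olfr353 (-6.983) and Cdkn1b (1.786), and sham 2 for Ppara (4.092). 1-kidney 2 was lowest for 1700016H13Rik (-3.449) and Lce1m (-4.363), nearest to the sham level, and 1-kidney 1 for Twist2 (-5.829, the others from -5.087 to -5.037).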

How the results depend on the processing

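The single higher gene became 2 with quantile normalization (4930567H12Rik and Zim3), 79 with array weights, and 0 with the normexp background, the filter for all 8 low-fat arrays (which removes Zim3), the 8 low-fat arrays alone, slide as a random block (consensus correlation 0.41; 33 genes at an unadjusted p under 0.05) or without the 3 arrays high in Ahsg, a liver gene (chosen after seeing the data); the range was 0 to 1 when single arrays were left out. The lower count was 25 with array weights. With array weights 21 named genes passed that did not otherwise, among them Car3, Heyl, Padi1, Ttr and Cyp21a1; the cause was not tested. With the replicate number as a block the count was 0 (Zim3 adjusted p = 0.365). Same-numbered arrays had correlations of deviations from -0.13 to -0.011, and differently numbered ones from -0.17 to 0.15. These correlations do not settle whether the numbers pair the mice. Non-overlapping genes were 210 higher with normexp, 1580 higher and 1544 lower without the 3 arrays, and 579 to 1144 higher and 497 to 849 lower with single arrays left out, where fewer arrays have to separate. Of 1865 values under alternatives for 94 genes (those of lowest p, the panel and the list members described), 24 changed sign, all of genes that did not pass: with normexp Slc34a1 (-0.0029), Ppara (-0.068), Atp5a1 (-0.047) and Cdkn1b (0.054); without the 3 arrays Ren1 (0.0095), Lcn2 (0.072), Lrp2 (-0.014), Nphs1 (0.11), Met (0.021) and Cdkn1b (0.13); with the mean of probes Vegfa (-0.062); with array weights Igf1 (0.044) and Rps6 (0.034). Leaving out single arrays gave ranges across 0 for Cdkn1b (-0.11 to 0.035), Fn1 (-0.30 to 0.041), Igf1 (-0.097 to 0.056), Nphs1 (-0.26 to 0.016), Rps6 (-0.041 to 0.019), Tgfb1 (-0.14 to 0.083), Vegfa (-0.017 to 0.16). Of 663 list medians 11 moved by more than the replicate spread. Signal over background limits the dimmest genes.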
